A study of Mus musculus with 394 samples.

Results

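The libraries described here hold the RNA of fluorescence-sorted VGlut1 synaptosomes from mouse cortex (3 libraries) and striatum (3 libraries), and were chosen by their labels alone: the VGlut1-VENUS genotype, the sorted fraction and the brain region. They are 6 of the 394 samples of the series. In these knock-in mice (VGlut1-VENUS, allele *Slc17a7*tm1.1Ehzg) the fluorescent protein VENUS is fused to the vesicular glutamate transporter VGLUT1, so that every cell expressing VGLUT1 carries the label and no Cre line or virus is needed. All mice were aged P90-150 and of the same line in both regions, no treatment separated the groups, and region was the one labelled difference.

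VGLUT1 loads glutamate into synaptic vesicles. Pyramidal neurons of the cortex use it at their axon terminals, both at corticocortical synapses within the cortex and at corticostriatal synapses, where they contact the spiny projection neurons that make up most of the striatum. A synaptosome is a nerve terminal that has torn off and resealed during homogenization, often with a piece of the postsynaptic membrane or of a glial process still attached. Fluorescence-activated synaptosome sorting (FASS) enriches for small particles that carry the label. The study reports that its sorted VGlut1 samples still held a large part of particles without the label. A comparison of cortical with striatal sorted particles therefore sets samples enriched in terminals of the same broad neuron class against each other. Adhering material and unlabelled particles of each region are included.

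Each preparation also gave a sample of all small particles, sorted by size without regard to VENUS and sequenced as 3 technical repeats, which were summed here to 1 sample each (3 cortical and 3 striatal). As a further striatal series, 6 sorted libraries came from DAT-Cre mice of the same age range, whose dopamine axons were labelled by an AAV carrying EGFP. All were made on a single plate by priming on poly(A) tails with a barcoded primer per well, and the deposited values are counts of unique molecular identifiers (UMIs), that is, of distinct captured molecules per gene. The barcode is what assigns a molecule to its library, so the 6 barcodes are shown, 5′ to 3′, in capitals.
striatum, preparation 7: GGATGATC
striatum, preparation 8: TACCTTGG
striatum, preparation 9: TCAACAGG
cortex, preparation 10: GCAACGTT
cortex, preparation 11: AAGCAGGA
cortex, preparation 12: GATGATCC
These differed from each other at 4 to 8 of their 8 positions and from every other well of the plate by at least 4. The authors' error correction allows 1 changed base.

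The sorted striatal libraries held 23709, 16947 and 21376 UMIs (preparations 7, 8 and 9) and the sorted cortical libraries 23778, 39742 and 39650 (preparations 10, 11 and 12). The cortical totals averaged 34390 ± 9190.4 and the striatal totals 20677 ± 3435 (SD, n = 3 each), a 1.63-fold difference of geometric means (exact two-sided permutation test, p = 0.1, the smallest that 3 against 3 can give). The cortical library of preparation 10 was as shallow as the deepest striatal one. When every library was reduced to 16947 UMIs, 3662, 3769.6 and 4166 genes were expected in the cortical libraries and 3748, 3805 and 3707 in the striatal ones, which overlap (exact two-sided permutation test, p = 0.8). Counts this low set the precision: a gene with 10 UMIs in a library carries a large counting error, intervals given below for shares cover counting error only, and a level of 3 UMIs is taken as the limit of detection.

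The labels were checked against genes that define the cell types involved. *Slc17a7*, the tagged gene, gave 1, 2 and 1 UMIs in the sorted striatal libraries and 0, 2 and 1 in the sorted cortical ones, too few to test, against 2, 4 and 1 in the striatal small particles and 3, 19 and 27 in the cortical ones. The mRNA of the sorted protein was thus at the limit of detection in all 6 sorted libraries. *Neurod6*, a transcription factor of cortical pyramidal neurons, gave at most 2 UMIs in any sorted library. *Th* and *Slc6a3*, which define dopamine neurons, were at 0 in all 6. A row for EYFP was at 0 in every sample of both lines. The row labelled WRPE, named for an element of the virus, was at 0 in all 6 sorted VGlut1 libraries, held 7 UMIs over the sorted DAT libraries and 2 in the cortical small particles of preparation 10, from mice whose labels name no virus. One preparation stood apart: the cortical small particles of preparation 10 held 3 UMIs of *Slc17a7*, and 0.436% of their UMIs fell on the cortical glutamatergic neuron list (95% exact binomial interval 0.394 to 0.482), against 0.740% and 0.777% in preparations 11 and 12 and 0.397% to 0.500% in the striatal small particles. Its sorted library, at 0.463%, was likewise the lowest of the 6 for that list. The main results are therefore also given without it. All pairs of libraries within a region differed by more than sampling noise (chi-square over its degrees of freedom 1.73 to 5.36), so none was a library deposited again. Whether cortical and striatal preparations came from the same mice is not given in the sources used here. They were treated as independent.

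Sorted cortical and striatal VGlut1 samples carried nearly the same abundant transcripts. Of the 20 genes with the highest mean level in each region, 17 were shared, as were 92 of the top 100. Besides *Dusp10* and *Unc93b1*, they included mitochondrial rRNAs and mRNAs, ribosomal protein mRNAs such as *Rps29* and *Rplp1*, the ferritin heavy chain *Fth1*, the cytochrome oxidase subunit *Cox8a* and the astrocyte-rich transcript *Cst3*. Across the 192 genes with at least 100 UMIs over the 6 libraries, Pearson's r of log2 levels was 0.786 to 0.932 between a cortical and a striatal library (9 pairs), 0.809 to 0.918 between cortical libraries and 0.886 to 0.934 between striatal ones (3 pairs each); this is a description across genes, which share depth and library composition. For 129 of those 192 genes the 95% interval of the regional difference lay within a 2-fold change either way, and for 186 within 4-fold. Below that abundance the data say less, since the median standard error of the log2 difference over all 1861 genes tested was 0.72.

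Of these 1861 genes, 3 passed edgeR's quasi-likelihood test between sorted cortex and sorted striatum at a Benjamini-Hochberg adjusted p of 0.05, or 0.161%. The 2 lower in cortex (0.107%) were *Crym* and *Gng7*, and the 1 higher (0.0537%) was *Arhgef38*, which came from a single library. A further 120 genes had an unadjusted p under 0.05, making 123 in all (6.61%), 76 of them higher (4.08%) and 47 lower (2.53%) in cortex. Every cortical library lay above every striatal library in CPM for 133 genes (7.15%) and below for 68 (3.65%), where CPM is the count of a gene scaled to a common total of UMIs per library. The filter for testing summed raw UMIs, and the cortical libraries were deeper on average, so genes high in cortex met it more readily. The median log2 difference over all genes was 0.07. Neither *Crym* nor *Gng7* passed with DESeq2's Wald test, which called 0 genes in either direction, 48 higher and 37 lower at an unadjusted p under 0.05.

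*Crym* encodes mu-crystallin, a thyroid hormone-binding protein abundant in the striatum (ENSMUSG00000030905.5, GRCm38 chromosome 7, 120186380 to 120202111, minus strand, protein coding). It gave 7, 5 and 8 UMIs in the sorted striatal libraries and 2, 2 and 3 in the sorted cortical ones, although the latter were deeper. In CPM these were 295, 295 and 374 against 84.1, 50.3 and 75.7, so that every striatal library lay above every cortical one. The mean fell from 322 ± 45.7 CPM in striatum to 70.0 ± 17.6 in cortex (SD, n = 3), a log2 difference of -2.27 ± 0.45 (SE, edgeR adjusted p = 0.0325). In the small particles the same gene stood at 189 ± 20.5 CPM in striatum and 52.6 ± 23.1 in cortex (log2 difference -1.91 ± 0.36, edgeR adjusted p = 0.00316). The 6 sorted DAT libraries, also striatal, ranged from 382 to 769 CPM, all above the sorted cortical libraries.

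*Gng7* encodes a G protein gamma subunit that serves dopamine and adenosine receptor signaling in spiny neurons (ENSMUSG00000048240.14, GRCm38 chromosome 10, 80948624 to 81014945, minus strand, protein coding). Its sorted striatal libraries held 15, 15 and 13 UMIs and the cortical ones 9, 7 and 6. The CPM values were 633, 885 and 608 in striatum and 379, 176 and 151 in cortex, again without overlap. The mean fell from 709 ± 153 to 235 ± 125 CPM (SD, n = 3), a log2 difference of -1.68 ± 0.36 (SE, edgeR adjusted p = 0.0425). The highest cortical value belonged to preparation 10, and without its sorted library and its small particles the log2 difference was -2.20 (edgeR adjusted p = 0.00556). Leaving out the highest cortical value enlarges the difference, and the preparation was set apart in these same data. The larger difference is therefore no independent result. Small particles gave 631 ± 108 CPM in striatum and 170 ± 66.1 in cortex, and the sorted DAT libraries 459 to 739.

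Both calls sat close to the threshold. *Crym* passed in 7 of 18 alternative analyses and *Gng7* in 8 of 19, with log2 differences between -2.43 and -2.02 and between -2.20 and -1.43. In particular, neither passed when only the 12 sorted or the 6 VGlut1 sorted libraries were fitted, or when libraries were scaled by total UMIs alone. With the 6 VGlut1 sorted libraries alone, the edgeR adjusted p was 0.513 for *Crym* and 0.605 for *Gng7*.

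**Figure D1:**
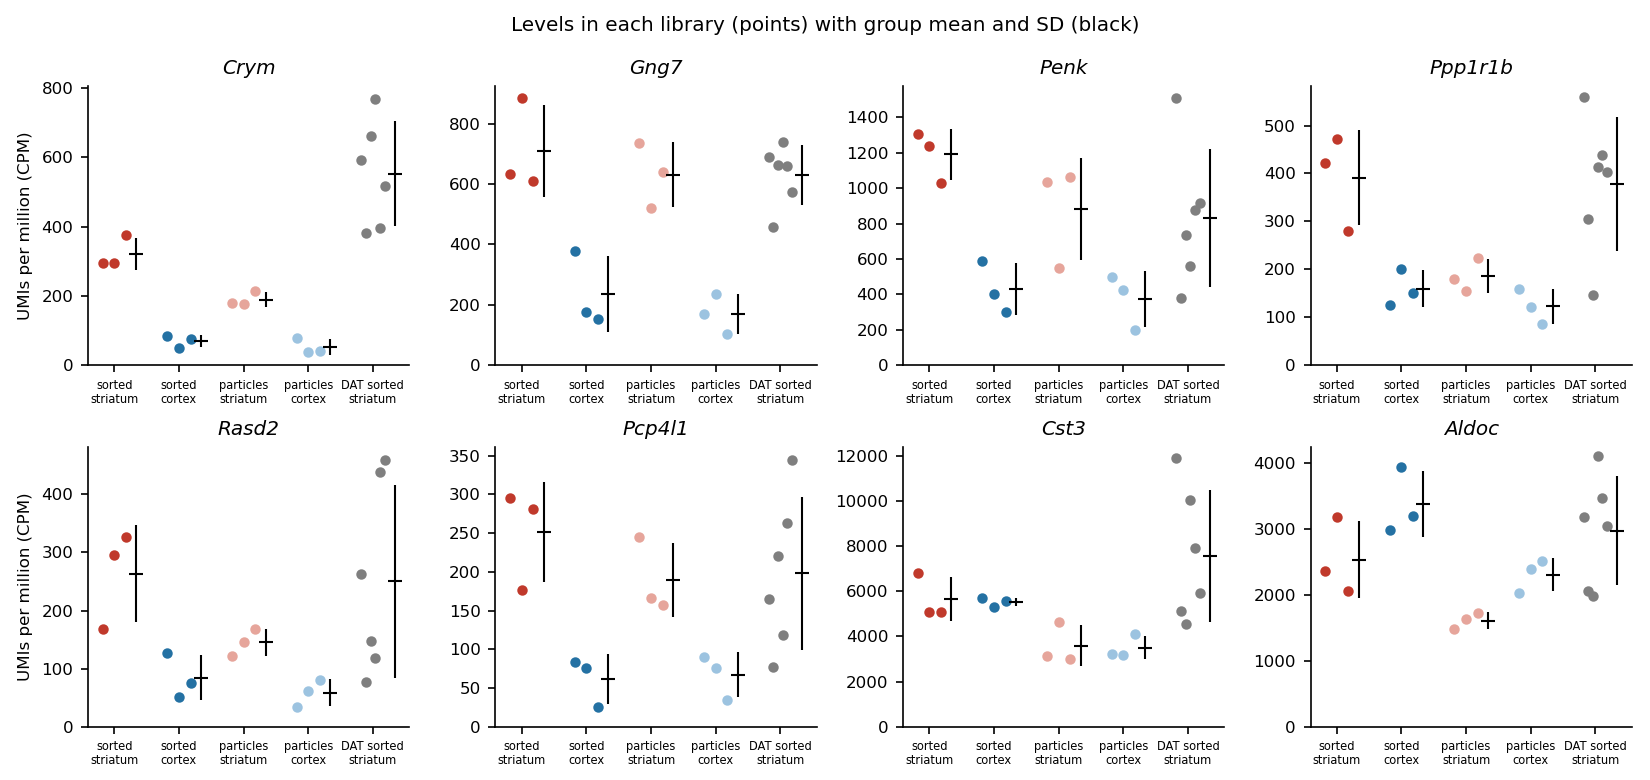
Level of 8 genes in CPM (vertical axes, from 0, with a scale for each gene) in each library (points), grouped by sorted striatum, sorted cortex, small particles of striatum and of cortex (3 VGlut1 preparations each) and sorted DAT striatum (6 libraries). Black marks give the group mean and SD. For the first 6 genes all 3 sorted cortical points lie below all 3 sorted striatal points, while for *Cst3* and *Aldoc* the regions overlap.

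The genes of striatal spiny projection neurons lay lower in sorted cortex as a group. Spiny neurons are postsynaptic to VGlut1 terminals in the striatum and do not themselves express VGLUT1. Of 26 listed genes, 14 had enough UMIs to be tested and all 14 had a log2 difference below 0, from -2.58 (*Syndig1l*) to -0.86 (*Adcy5*), of which 1, *Gng7*, passed the test. The direction of *Adcy5* rested on striatal preparation 9, without which its log2 difference was 1.03. In 7 of the 14 every cortical library lay below every striatal library, against 3.65% of all genes tested, and 8 had an unadjusted p under 0.05 in that direction, against 2.53%. The list was chosen with earlier results of these data known, so these shares describe it and are no independent support. The median was -1.40, beside 0.07 for all genes, and -1.86 without the sorted library of preparation 10. That library had the highest cortical share of this list, so the lower median without it is no independent result either. The other 12 genes held 24 UMIs over the cortical libraries and 32 over the striatal ones. With bulk libraries, fewer fragments of a cell type, adhering or unlabelled, and less RNA in each of them cannot be told apart.

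*Penk*, which encodes the enkephalin precursor of indirect-pathway spiny neurons, gave 74 UMIs over the striatal libraries and 42 over the cortical ones. By library these were 31, 21 and 22 in sorted striatum and 14, 16 and 12 in sorted cortex. Its mean was 1192 ± 145 CPM against 431 ± 145 (SD, n = 3), with no overlap between regions, and a log2 difference of -1.53 ± 0.44 that missed the threshold (edgeR adjusted p = 0.219). *Ppp1r1b*, which encodes the dopamine-regulated phosphatase inhibitor DARPP-32, gave 10, 8 and 6 UMIs against 3, 8 and 6, or 391.5 ± 99.2 against 159.6 ± 38.2 CPM (log2 difference -1.30 ± 0.40, edgeR adjusted p = 0.270). *Rasd2*, the striatal GTP-binding protein Rhes, gave 4, 5 and 7 UMIs against 3, 2 and 3, or 264 ± 83.9 against 84.1 ± 38.6 CPM (log2 difference -1.75 ± 0.55, edgeR adjusted p = 0.272). Per library depth, neither gene overlapped between regions, and all 3 sorted cortical libraries still held UMIs of each of these genes. The receptor genes *Drd1*, *Drd2* and *Adora2a*, which define the spiny neuron subtypes, gave 0 to 2 UMIs in each sorted library of either region and could not be compared.

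Summed over the list, the share of UMIs was 0.439%, 0.543% and 0.538% in the sorted striatal libraries, with 95% exact binomial intervals from 0.359 to 0.531, 0.438 to 0.665 and 0.444 to 0.645. In sorted cortex it was 0.273% (0.211 to 0.348), 0.166% (0.128 to 0.211) and 0.169% (0.131 to 0.215). Every cortical library was below every striatal one, and preparation 10 was the nearest to striatum. The group means were 0.507% ± 0.0588 and 0.203% ± 0.0611 (SD, n = 3). The unsorted small particles of the same preparations gave 0.459% ± 0.137 and 0.173% ± 0.0298, and the sorted DAT libraries of striatum 0.459% ± 0.125 (SD, n = 6), ranging down to 0.268%. In each region the sorted and unsorted ranges overlapped, at 0.166% to 0.273% and 0.139% to 0.192% in cortex and 0.439% to 0.543% and 0.302% to 0.553% in striatum.

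**Figure D2:**
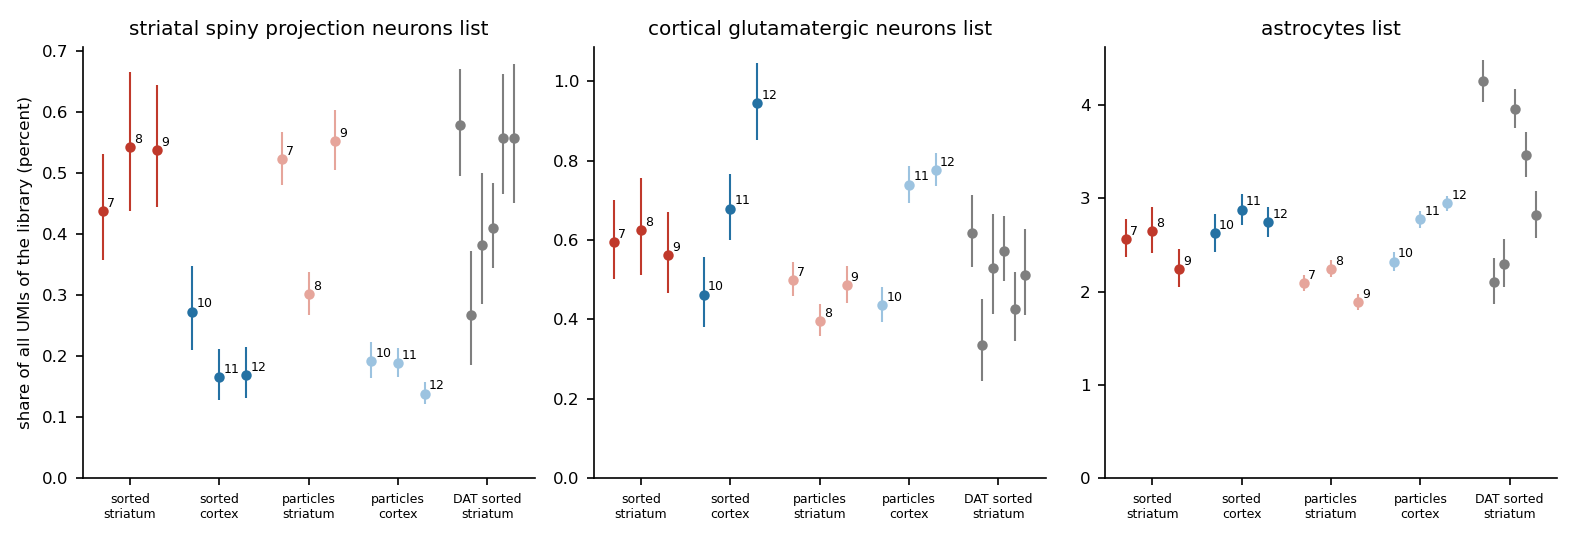
Share of all UMIs of a library, in percent (vertical axes from 0), that fell on the spiny neuron list, the cortical glutamatergic neuron list and the astrocyte list, by group; points are libraries, bars 95% exact binomial intervals and numerals the preparation. The sorted cortical libraries lie at 0.166% to 0.273% of spiny neuron UMIs, below the sorted striatal 0.439% to 0.543%, and preparation 10 is lowest among cortical libraries on the cortical neuron list in both fractions.

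The summed share of the cortical glutamatergic neuron list overlapped between regions with all 6 libraries. It did not overlap without preparation 10, but that preparation was set apart by its low share on this same list. The separation without it is therefore no independent result. Of 24 listed genes, 14 were tested, of which 10 had a log2 difference above 0 and 4 below, with a median of 0.34. The 1 called was *Crym*, which stands in this list although it is also a striatal gene, and it was lower in cortex. The 10 listed genes below the filter held 32 UMIs over the cortical libraries, which were deeper on average, and 14 over the striatal ones. *Camk2a*, the kinase subunit whose mRNA is a classic dendritic transcript of pyramidal neurons, gave 9, 3 and 10 UMIs in sorted striatum and 8, 28 and 27 in sorted cortex. Its means of 341 ± 149 and 574 ± 206 CPM overlapped (log2 difference 0.67 ± 0.47, edgeR adjusted p = 0.898). *Camk2n1*, which encodes an inhibitor of that kinase, stood at 1671 ± 354 and 2283 ± 735 CPM (log2 difference 0.40 ± 0.27, edgeR adjusted p = 0.879). *Arpp19* stood at 394 ± 182 and 255 ± 45.9 CPM. The list took 0.561% to 0.6255% of UMIs in the striatal sorted libraries, and 0.463%, 0.679% and 0.946% in the cortical ones, so that preparation 10 lay below and preparations 11 and 12 above every striatal library. Its median log2 difference was 0.52 without the sorted library of preparation 10, -0.01 without the sorted library of preparation 12 and 0.55 at the highest when 1 library was left out.

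**Figure D3:**
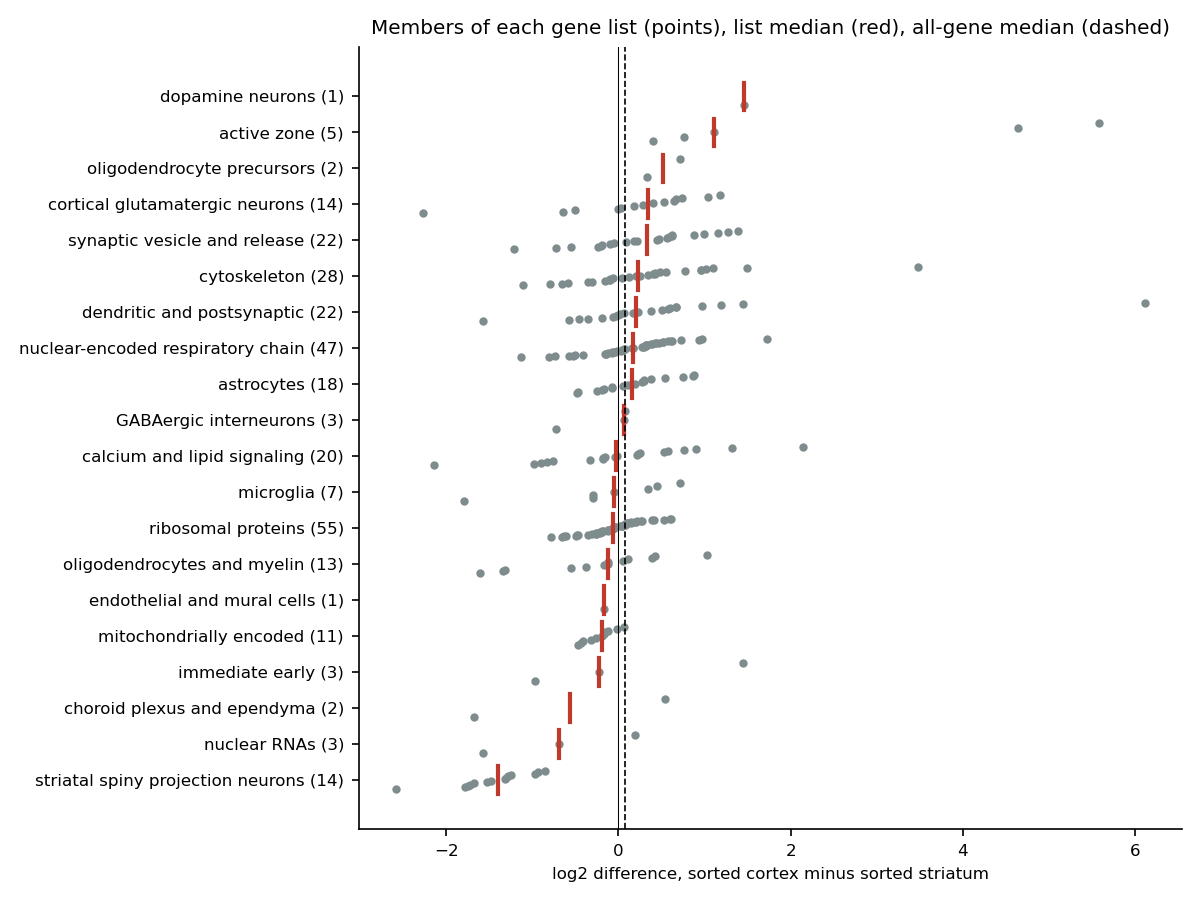
Log2 difference between sorted cortex and sorted striatum (horizontal axis, cortex minus striatum) for each tested member (points) of 20 gene lists, with the number of members tested in brackets, the list median in red and the median of all 1861 genes, 0.07, as a dashed line. The spiny neuron list is the one with 10 or more members that lies wholly below 0, with a median of -1.40.

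No listed gene of the presynaptic terminal passed the test between regions. Of 28 synaptic vesicle and release genes 22 were tested, with 14 above 0, 8 below, 0 called in the edgeR test and 0 at an unadjusted p under 0.05. The median was 0.33 and the summed share 0.307% ± 0.0798 in striatum and 0.344% ± 0.0930 in cortex (SD, n = 3). *Cplx2*, complexin 2, a clamp of vesicle fusion, gave 20, 10 and 7 UMIs in striatum and 4, 16 and 20 in cortex (587 ± 258 and 358 ± 172 CPM, log2 difference -0.72 ± 0.41, edgeR adjusted p = 0.809). *Sv2a* and *Syngr1*, vesicle membrane proteins, had log2 differences of -1.21 ± 0.95 and 1.15 ± 0.71.

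Of 15 active zone genes 5 were tested, 0 passed, and all 5 lay above 0 with a median of 1.11, 2 of them at an unadjusted p under 0.05 (4.08% of all genes in that direction). Those 2 were *Erc1* and *Cacna1a*. The filter favoured genes high in the deeper cortical libraries, and how far it set the common direction of the members tested was not tested. The median rested on few molecules and on single libraries: over the members still tested it was 0.43 without cortical preparation 12, 3.75 without striatal preparation 7 and 2.47 without striatal preparation 9. The other 10 genes held 34 UMIs over the cortical and 12 over the striatal libraries. *Rims1*, the scaffold that docks vesicles at release sites, gave 3, 1 and 2 UMIs in striatum and 6, 5 and 6 in cortex (93.0 ± 33.8 and 176 ± 66.9 CPM, log2 difference 0.76 ± 0.70, edgeR adjusted p = 0.951). *Bsn*, which encodes the giant scaffold Bassoon, gave 1, 3 and 0 against 0, 3 and 2 and was below the filter. *Cacna1a*, the P/Q-type calcium channel subunit, was at 0 in the 3 striatal libraries and at 1, 6 and 3 in the cortical ones (edgeR adjusted p = 0.322). It met the filter through cortex alone. Against a limit of 3 UMIs over the striatal group the ratio was 2.004, which leaves out the counting error of the cortical UMIs. *Erc1*, another scaffold, held 51 of its 53 UMIs in 1 library.

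Among 28 dendritic and postsynaptic genes, 22 were tested, 14 were above 0 and 8 below with a median of 0.20, and 0 passed. *Gria1*, an AMPA receptor subunit, gave 9, 2 and 5 UMIs in striatum and 2, 3 and 4 in cortex (244 ± 131 and 86.8 ± 12.9 CPM, log2 difference -1.57 ± 0.57, edgeR adjusted p = 0.416). *Shank1*, a postsynaptic density scaffold, was at 0 in striatum and in cortical preparation 10 and at 7 and 8 in preparations 11 and 12. It met the filter through cortex alone. *Kif5a*, a kinesin motor chain, gave 1381 ± 339 and 2285 ± 232 CPM, with every cortical library above every striatal one (log2 difference 0.67 ± 0.33, edgeR adjusted p = 0.746). The median of the list was -0.05 without the sorted library of preparation 12.

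The cytoskeleton list (28 tested of 32, median 0.23) also had 0 calls. Its smallest p belonged to *Nefl*, the neurofilament light chain of large axons, with 1, 0 and 0 UMIs in striatum and 3, 11 and 8 in cortex (14.1 ± 24.4 and 202 ± 75.3 CPM, log2 difference 3.48 ± 0.93, edgeR adjusted p = 0.140). This gene met the filter through cortex, and its striatal UMIs were below the limit of 3. The size of its difference is therefore poorly measured. The cortical small particles were likewise higher for this gene, at 192 ± 20.0 CPM against 73.7 ± 34.7. *Actb*, beta-actin, overlapped between regions at 1499.9 ± 81.1 and 1389 ± 187 CPM (log2 difference -0.16, 95% interval -0.67 to 0.35). In the calcium and lipid signaling list, with 20 of 25 tested and a median of -0.03, 3 members lay lower in every cortical library (3.65% of all genes did) and 0 higher in every one (7.15%). The median changed sign with the library left out, between -0.10 and 0.025. The 3 lower members were *Calm3*, a calmodulin gene (750.1 ± 96.8 and 457 ± 111 CPM), *Pcp4l1* (7, 3 and 6 UMIs against 2, 3 and 1, log2 difference -2.14 ± 0.60, edgeR adjusted p = 0.203) and *Pcp4*, a calmodulin-binding peptide (31, 14 and 26 against 17, 24 and 22, log2 difference -0.91 ± 0.37, edgeR adjusted p = 0.578).

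RNA of glia was present in sorted particles of both regions, and no listed glial gene passed the test between them. Of 25 astrocyte genes 18 were tested and 0 passed, with a median of 0.15 and a summed share of 2.49% ± 0.213 in striatum and 2.75% ± 0.127 in cortex (SD, n = 3). The ranges of this share, 2.25% to 2.65% and 2.62% to 2.88%, overlapped. In the small particles they did not, at 1.89% to 2.25% in striatum and 2.32% to 2.95% in cortex. *Cst3*, the secreted protease inhibitor cystatin C, gave 161, 86 and 109 UMIs in striatum and 135, 211 and 221 in cortex, or 5655 ± 984 and 5520.2 ± 189.9 CPM (log2 difference -0.08, 95% interval -0.58 to 0.43). *Apoe*, the lipid carrier apolipoprotein E, stood at 4380.1 ± 593 and 4876 ± 486 CPM (log2 difference 0.11, 95% interval -0.39 to 0.62). *Sparcl1*, the secreted synaptogenic protein hevin, and *S100b* lay higher in every cortical library, with log2 differences of 0.87 ± 0.34 and 0.75 ± 0.29 (edgeR adjusted p = 0.537 for both). Their small particle differences were 0.61 and 0.35.

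Myelin and oligodendrocyte genes (13 tested of 21, 0 called, median -0.13) took 1.54% ± 0.154 of UMIs in striatum and 1.46% ± 0.0605 in cortex. *Mbp*, myelin basic protein, whose mRNA is carried into myelin sheaths, gave 87, 59 and 59 UMIs in striatum and 59, 97 and 80 in cortex. In CPM every cortical library was lower (3304 ± 480.0 and 2313 ± 257 CPM, log2 difference -0.55 ± 0.28, edgeR adjusted p = 0.755). Microglial genes (7 tested of 14, 0 called) took 0.109% ± 0.0252 and 0.113% ± 0.0332. The complement genes *C1qa* and *C1qc* gave 1 to 6 UMIs per library. Endothelial, choroid plexus, interneuron, precursor and dopamine neuron lists had 1 to 3 tested members each and red blood cell and sex-linked lists 0, with no call among them. Of the 12 dopamine neuron genes 1 was tested, *Aldh1a1*, at 49.3 ± 8.70 and 137 ± 59.7 CPM (edgeR adjusted p = 0.751).

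Housekeeping lists were the most precisely measured. All 55 ribosomal protein genes were tested and 0 passed, with a median of -0.06, a range from -0.78 to 0.61 and a summed share of 9.30% ± 0.391 in striatum and 9.13% ± 0.931 in cortex (SD, n = 3). The highest and lowest members, *Rps25* (661 ± 129 and 1042 ± 28.1 CPM) and *Rpl7* (465 ± 83.2 and 283 ± 9.98 CPM), lay on opposite sides of 0 without passing (edgeR adjusted p = 0.772 and 0.652). For the nuclear-encoded respiratory chain all 47 were tested, 31 above 0 and 16 below, with a median of 0.17 and shares of 3.43% ± 0.465 and 4.08% ± 0.564. *Uqcrb*, a subunit of complex III, gave 2 UMIs in each striatal library and 12, 10 and 11 in the cortical ones, with no overlap per library depth, and missed the threshold (log2 difference 1.72 ± 0.49, edgeR adjusted p = 0.216). *Ndufa4*, a cytochrome oxidase-associated subunit, gave 12, 8 and 9 against 18, 31 and 34 (log2 difference 0.73 ± 0.29, edgeR adjusted p = 0.537). *Uqcrc1*, a core subunit of complex III that is not on the list, gave 4, 5 and 6 against 2, 4 and 3 (log2 difference -1.53 ± 0.51, edgeR adjusted p = 0.322). The mitochondrially encoded list took 16.35% to 18.2% of UMIs in striatum and 12.9% to 16.25% in cortex, ranges that nearly touch, with 10 of 11 tested members below 0, a median of -0.19 and 0 calls.

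Several of the largest differences came from 1 library. *Arhgef38*, a guanine nucleotide exchange factor gene (GRCm38 chromosome 3, 133112278 to 133234949, minus strand), held 128 of its 129 UMIs in the sorted cortical library of preparation 11 and 1 in preparation 10. It was at 0 in the 3 striatal and in the 6 sorted DAT libraries, and in the VGlut1 small particles gave 3 UMIs in cortical preparation 12, 1 in striatal preparation 7 and 0 in the others. Its log2 difference of 9.05 ± 2.01 passed (edgeR adjusted p = 0.0425), and without preparation 11 it was no longer tested or called. The group ratio was 25.9 against a limit of 3 UMIs over the striatal group, without an allowance for counting error. In all, 8 genes had over 80% of their UMIs in 1 of the 6 libraries, among them *Erc1* (51 of 53 UMIs in cortical preparation 12) and *Scgb1a1*, a secretoglobin known from the airway, with 15 of 15 in striatal preparation 7. By contrast *Anxa5*, a calcium-dependent membrane-binding annexin, was at 0 in the 3 striatal libraries and at 6, 4 and 5 in the cortical ones, without passing (edgeR adjusted p = 0.140). It met the filter through cortex alone, and its ratio of 3.01 against the same limit leaves out the counting error of the cortical UMIs. When a gene had to have a UMI in all 3 libraries of a region, an analysis added after these counts were seen, 0 genes passed in either direction (53 higher and 35 lower at an unadjusted p under 0.05), and *Crym* and *Gng7* had an edgeR adjusted p of 0.0619.

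Whether the sort itself altered the regional difference was asked with the interaction of region and sorting. Here 0 of 1861 genes passed (0%), with 75 at an unadjusted p under 0.05 (4.03%), and DESeq2 also called 0, with 60 under that level. In the small particles themselves 7 genes passed (0.376%), with 140 at an unadjusted p under 0.05 (7.52%). The 6 lower in cortex (0.322%) included *Crym*, *Gng7*, *Arpp21*, *Agxt* and *Qdpr*, and *Fam107a* was higher. *Agxt* held 1671 UMIs in the striatal small particles of preparation 8 and at most 14 in the other 5 VGlut1 small particle samples, and *Qdpr* 287 in preparation 9 against at most 50. The 2 genes lower in sorted cortex were thus also lower in the cortical particles from which the sort was made. For *Crym* the interaction was -0.36 ± 0.59 and for *Gng7* 0.23 ± 0.47 on the log2 scale (edgeR adjusted p = 1.00 for both).

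The spiny neuron list had a median of -1.46 in small particles and -1.40 after sorting, and the median of the members' interactions was 0.08. Among the genes with the smallest interaction p-values, *Anxa5* and *Nkain4* were at 0 in sorted striatum, *Qdpr* held 287 of its small particle UMIs in the sample given above, and *Cyc1*, *Ppdpf* and *Uqcrc1* had log2 differences below 0 in sorted particles and above 0 in small particles. *Cyc1*, the cytochrome c1 subunit of complex III, gave 8, 4 and 2 UMIs in sorted striatum and 2, 5 and 1 in sorted cortex (interaction -2.95, edgeR adjusted p = 0.934). Without preparation 10, 0 genes passed in the interaction, 4 in small particles and 4 between the sorted regions, the fourth being *Erc1*.

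**Figure D4:**
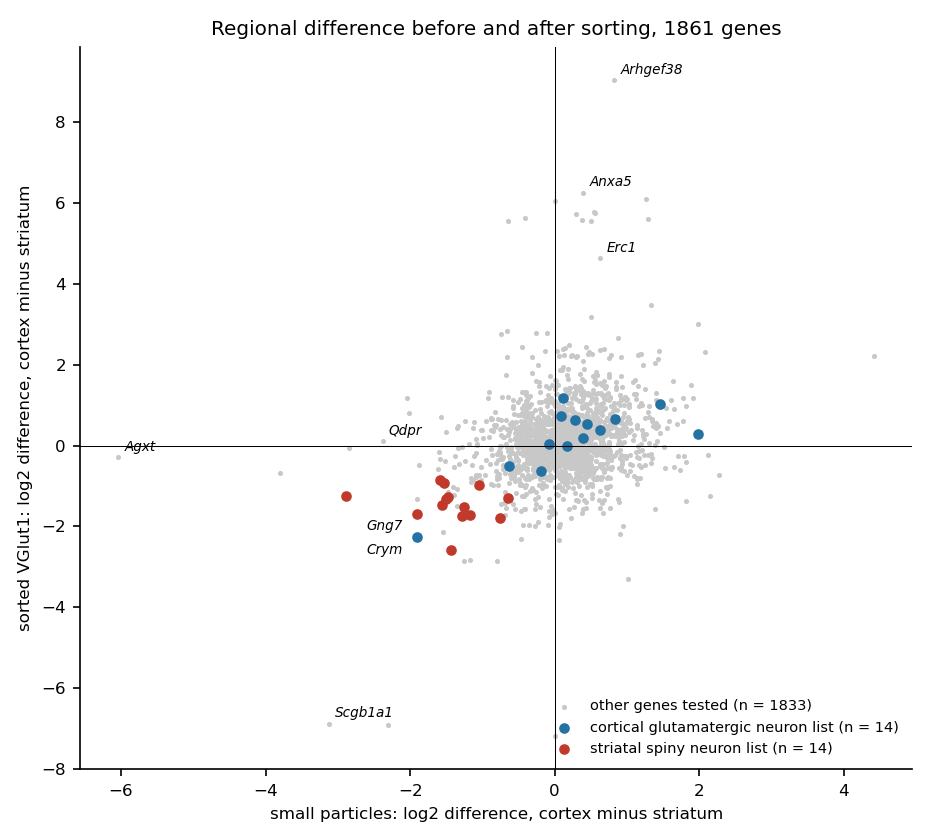
Log2 difference between cortex and striatum in sorted VGlut1 particles (vertical axis) against that in small particles of the same preparations (horizontal axis) for the 1861 genes tested (points). The 14 spiny neuron genes (red) lie below 0 on both axes, the 14 cortical glutamatergic genes (blue) spread from -2.27 (*Crym*) to 1.18 on the vertical axis, and the points far out on a single axis, such as *Arhgef38* and *Agxt*, rest mostly on 1 library.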

How the data were processed

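Sorted and small particle libraries of plate PB007 were analysed as deposited counts of UMIs per gene. The authors trimmed poly(A), aligned with STAR to GRCm38 with GENCODE vM10, and merged UMIs that differed at 1 base. Coordinates are from GENCODE vM21 of the same build. The 48 columns used gave 24 samples once 3 technical repeats were summed. The main test was edgeR 4.0.16 quasi-likelihood in R, with a mean for each of 6 groups, DESeq2 size factors as scaling, at least 10 UMIs over the 6 sorted VGlut1 libraries, and Benjamini-Hochberg adjustment at 0.05. It was also run on simulated counts with the same dispersion for all genes and independent samples. Such counts do not cover single-library transcripts or paired preparations. SE is the absolute log2 difference over the square root of F. The 5 rows without a mouse gene ID were left out of tests (at most 4 UMIs in a sample). P-values of the main test measure the spread within all 6 groups, small particle and DAT samples included. All 24 samples were taken as independent. These p-values thus do not rest on the sorted VGlut1 preparations alone. The number of mice in each preparation, and whether both regions came from the same mice, is not given in the sources used here. The strand setting of counting is also not given, so reads of overlapping antisense genes cannot be told apart. Gene lists and members were chosen with earlier results of these data known. Named genes were those called in the sorted contrast or interaction (the 3 of smallest p in a direction with fewer than 3 calls), up to 4 of smallest p per list, and 9 genes of the study or sort; *Syndig1l*, *Adcy5*, *Arpp21*, *Agxt*, *Fam107a*, abundant and single-library transcripts and defining markers were named after their values were seen. Sorted and small particle samples of a number came from the same preparation, which pairs them for the interaction. Their deviations correlated above 0.1 in 7 of all 12 pairs (median r 0.16) and in 2 of the 6 VGlut1 pairs. The main test did not model this pairing. Alternatives covered scaling, filters, test, samples in the fit, technical repeats, the replicate block and each library left out. The columns of full-length libraries were not used. Some genes are not reported here.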

Additional observations from a re-analysis of the deposited data

How the results depend on the processing

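Counts of genes called were small, and most alternatives moved them. Genes higher in sorted cortex numbered 1, and 0 with at least 30 UMIs, DESeq2, the legacy quasi-likelihood method, the 12 sorted or the 6 VGlut1 libraries alone, or a UMI in all 3 libraries of a region; 2 with no filter or without preparation 10; and 0 to 2 when 1 library was left out. Genes lower numbered 2, and 0 with total UMIs only, DESeq2, the legacy method, the 12 or the 6 libraries alone, or a UMI in all 3 libraries of a region; 1 with at least 30 UMIs; 5 with no filter, which did not include *Crym* or *Gng7*; and 0 to 3 when 1 library was left out, with 0 lacking preparation 8, 9, 11 or 12. The interaction gave 0 throughout, also with the preparation as a replicate block (0 called, 74 at an unadjusted p under 0.05), except 5 with no filter. The small particle comparison gave 7, and 4 with at least 30 UMIs or without preparation 10, 40 with no filter and 21 with DESeq2. The cause of these moves was not tested. The replicate block was fitted for the interaction only, so it does not bear on the calls in the sorted or small particle comparisons. Leaving out 1 library moved list medians between -0.014 and 0.55 (cortical glutamatergic), -1.86 and -1.32 (spiny), -0.086 and 0.28 (astrocytes), -0.38 and 0.011 (myelin), -0.051 and 0.51 (dendritic), 0.082 and 0.30 (cytoskeleton) and -0.38 and -0.10 (mitochondrially encoded). The sign changed for the cortical, astrocyte, myelin, dendritic, and calcium and lipid signaling lists. Lists with few tested members changed sign too, such as microglia (0.30 without preparation 10) and interneurons (-0.61 without preparation 12). Others were choroid plexus (0.66 without preparation 7) and immediate early genes (0.87 without preparation 8). The ratio of total UMIs stayed between 1.49 and 1.94, and the difference in genes at equal depth, 113, ranged from -37.5 to 215, turning sign without cortical preparation 12. Among 88 genes, 9 with no call changed sign in 15 of 1564 values, with ranges over all alternatives of -1.59 to 1.03 (*Adcy5*), -0.37 to 0.074 (*Bsg*), -0.23 to 0.59 (*Cnr1*), -0.17 to 0.031 (*Cst3*), -0.69 to 0.87 (*Jund*), -0.48 to 2.19 (*Npy*), -0.021 to 0.88 (*Olig1*), -0.10 to 0.42 (*Qdpr*, at -0.10 without preparation 10) and -0.29 to 0.69 (*Rian*). The median gene lay at 0.07 to 0.13 over the scalings. With 16947 to 39742 UMIs per library, genes under about 10 UMIs in all could not be compared.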

Other observations

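A pair of transcripts made up an unusual share of every sorted library. *Dusp10*, a dual-specificity phosphatase gene, took 10.2%, 11.8% and 12.1% of UMIs in sorted striatum and 13.6%, 9.00% and 7.83% in sorted cortex, and *Unc93b1* took 3.46% to 4.29% and 3.53% to 6.46%. In the small particles of the same preparations *Dusp10* ranged from 4.41% to 11.4%. The cortical preparation 10 was highest for both genes among the VGlut1 samples, in sorted and in unsorted particles. What these counts stand for was not tested. *Gm20775* took 2.79% of UMIs in striatal preparation 9 and 0.114% to 0.239% in the other 5 sorted libraries.

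Other genes found mostly in 1 library included *Cd109* with 17 of 17 UMIs in striatal preparation 9, *Gins2* with 14 of 14 in the same library and *Cfi* with 13 of 14 in cortical preparation 12. Among nuclear RNAs, *Malat1* gave 464, 885 and 1123 CPM in sorted striatum and 799, 327 and 479 in sorted cortex, and the list of these RNAs took 0.137% ± 0.0358 and 0.0866% ± 0.0392 of UMIs (SD, n = 3).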
